A study of Oryctolagus cuniculus with 20 samples.

Results

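Condylar cartilage caps the articular head of the jaw in the temporomandibular joint (TMJ). It is a layered tissue in which a fibrous surface overlies proliferating cells, chondrocytes that build type II collagen and aggrecan, and hypertrophic chondrocytes that make type X collagen above the bone. In internal derangement the disc of the joint loses its normal position, and the cartilage is then loaded and remodelled. The comparison described here sets cartilage taken 4 weeks after the left TMJ of rabbits was surgically deranged against cartilage taken 1 week after the same operation. It comprises 8 of the 20 arrays of the study, 4 per group, chosen by the time point in their labels. All animals were male rabbits aged 6 months, and the study text places the 16 operated rabbits in separate groups, so each array was treated as 1 animal. The other 12 arrays were from untreated joints and from joints 2 and 8 weeks after surgery, and entered the fit for their share of the estimate of spread. No group is labelled as sham-operated, so both groups compared carry the operation as well as the derangement.

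Total RNA was labelled with Cy3 and hybridised to 1-colour Agilent rabbit arrays. Levels are log2 units relative to the 75th percentile of signal of the same array, so a level of 0 equals that percentile. The 75th percentile lay between 398.5 and 641.8 intensity units on the 4-week arrays and between 174.1 and 470.4 on the 1-week arrays, with the lowest value on 1-week replicate 4. That array also had the fewest spots well above background (49.1%), where the 4-week arrays had between 58.5% and 61.0% and the other 1-week arrays between 57.3% and 66.4%. Its correlation with the other 1-week arrays was 0.931 to 0.947 across probes, where 0.972 to 0.986 was found among the 4-week arrays. The median SD of a probe was 0.206 in the 4-week group and 0.322 in the 1-week group. Both groups were scanned on 1 day, but each lay on a slide of its own, so a difference between slides and one between time points cannot be told apart. The number of arrays limits the precision of each mean.

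The cartilage at 4 weeks differed from that at 1 week at few probes, and mostly upward. Of 25821 probes well above background on at least 3 of 4 arrays of either group, 327 passed the test (1.27%; limma, 20-array fit, Benjamini-Hochberg adjusted p under 0.05). They comprised 271 higher (1.05%) and 56 lower (0.217%) at 4 weeks. Of the 327, 179 were well above background on all 8 arrays. Another 64 were among 1104 probes kept through the 4-week arrays only, and 19 among 869 kept through the 1-week arrays only. For such probes the filter favours a higher level in the group that kept them. SCN9A, DPEP1, CHRM4, SOD3, WNT3, CYP2A11 and SLC2A3, described below, were kept through the 4-week arrays only. SOX9, CALCR, MYH2, MMP12 and APOA1 were kept through the 1-week arrays only. The median log2 difference was 1.03 among the higher and -0.90 among the lower, and the extremes were 2.67 and -2.77. The 2 groups did not overlap at 317 of the 327 probes, where 6.53% of all kept probes did not overlap (3.23% higher and 3.3% lower). The 327 were selected by the same contrast, so a lack of overlap was favoured in advance and is a description only. At an unadjusted p under 0.05 there were 3282 probes (12.7%). Named genes passed as often as probes in general, with 9 of 721 (1.25%), of which 8 were higher and 1 was lower. The count depended on how the spread was estimated. The 20-array fit uses 1 spread per probe for all 5 groups. The median SD was largest at 1 week (0.322), against 0.196 to 0.231 in the other groups. SEs and adjusted p of the 20-array fit can therefore be too small for this contrast. A limma fit to the 8 arrays alone called 34 probes (0.132%), all higher, and none of the 9 named genes, 31 of the 34 being shared with the 20-array fit. Without 1-week replicate 4, the 20-array fit called 770 probes, which included 297 of the 327. With normexp background correction it called 13.

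**Figure D1:**
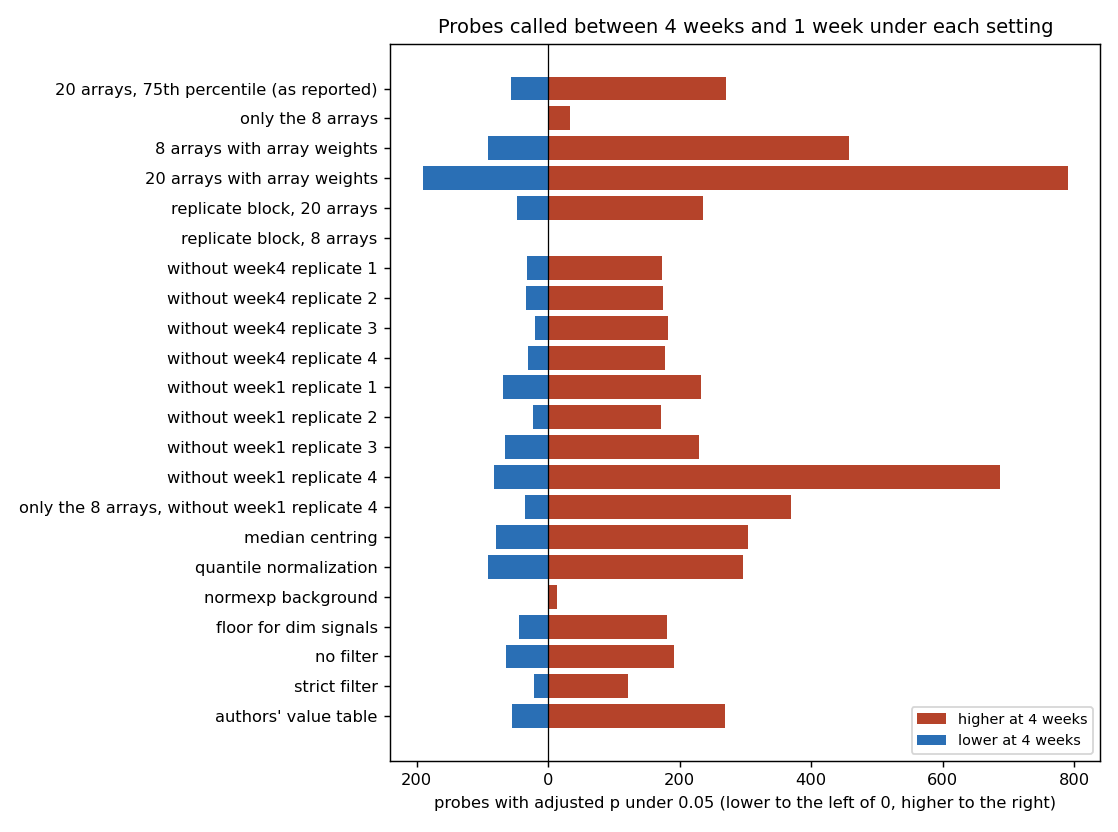
Number of probes with an adjusted p under 0.05 (horizontal axis) under each processing setting (vertical axis), with probes higher at 4 weeks to the right of 0 and probes lower at 4 weeks to the left. The count as reported, 327, fell to 34 with the 8 arrays alone and to 13 with normexp correction, and was 770 without 1-week replicate 4.

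The probes behind the main named results are shown first, since the value given for a gene comes from the 60 bases of 1 probe. SOD2, YBX1, S100A8 and CAMP have further kept probes. Each is copied from the array files 5′ to 3′, has no coordinates there, and holds no stop codon in at least 1 of its 3 forward frames. The first 4 belong to genes that passed the test. S100A8 and CAMP are the granulocyte genes with the largest differences that did not pass. The last 2 probes have no gene name. They had the largest falls among unnamed probes that passed the test and were well above background on all 8 arrays.
KCNQ1: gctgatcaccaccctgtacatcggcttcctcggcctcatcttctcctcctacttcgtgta
VDAC3: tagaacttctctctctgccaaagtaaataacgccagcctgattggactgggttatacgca
SOD2: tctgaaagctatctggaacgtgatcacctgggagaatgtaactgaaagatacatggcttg
YBX1: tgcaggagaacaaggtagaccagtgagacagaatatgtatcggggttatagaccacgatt
S100A8: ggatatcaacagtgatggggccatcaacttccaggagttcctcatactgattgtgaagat
CAMP: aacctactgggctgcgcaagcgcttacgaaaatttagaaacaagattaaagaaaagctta
A_04_P093627: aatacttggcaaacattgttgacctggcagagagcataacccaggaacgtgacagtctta
A_04_P041697: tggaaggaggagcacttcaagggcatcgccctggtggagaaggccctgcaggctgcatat

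KCNQ1, the pore subunit of a slow voltage-gated potassium channel, showed the largest rise among the named genes that passed the test. Its level was -0.26, -0.23, -0.49 and -0.32 on the 4-week arrays, against -2.45, -2.66, -2.10 and -1.17 on the 1-week arrays. The 4-week arrays lay close together and above every 1-week array, of which replicate 4 was the nearest. The SD of KCNQ1 was 0.12 at 4 weeks and 0.66 at 1 week, so an SE from the spread shared by 5 groups can be too small. The log2 difference of KCNQ1 was 1.77 ± 0.22 (SE, adjusted p = 0.000294 by limma), or 3.41-fold. It kept its call without any 1 array (adjusted p up to 0.00184), but not in the 8-array fit (0.0981) or with normexp correction, where the difference was 1.12 (0.057). In the other groups KCNQ1 averaged -1.51 ± 0.15 in untreated joints, -0.90 ± 0.17 at 2 weeks and -1.68 ± 0.17 at 8 weeks (SD, n = 4 each).

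A second channel gene, SCN9A, which encodes a voltage-gated sodium channel of sensory neurons, was also higher. SCN9A averaged -2.67 ± 0.42 at 4 weeks and -3.94 ± 0.31 at 1 week (SD, n = 4 each), from -3.30 to -2.40 on the 4-week arrays and from -4.20 to -3.55 on the 1-week arrays. The groups did not overlap, but SCN9A was well above background on only 2 of the 1-week arrays, so its difference of 1.27 ± 0.24 (SE, adjusted p = 0.00968, limma) rests in part on dim spots. The call held without any 1 array (adjusted p up to 0.0433) and not in the 8-array fit (0.11). With a floor for dim signals the difference of SCN9A was 0.94 (adjusted p = 0.107), and with normexp correction it was 0.11 (0.948). These were the 2 genes called among 40 measured ion channel genes, beside 1.27% of all kept probes called. The median difference of the list was -0.08, beside -0.03 for all 721 named genes and -0.02 for all kept probes. Among the others, the potassium channel gene KCNA5 differed by -0.47 ± 0.16 (adjusted p = 0.215), with its 4-week arrays all below the 1-week arrays. KCNA3, a potassium channel of T cells, differed by 0.99 ± 0.54 (adjusted p = 0.466), and without 1-week replicate 4 by 1.76 (adjusted p = 0.00654).

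Both other called members of the gene lists encode proteins of mitochondria. SOD2, the manganese superoxide dismutase that removes superoxide in mitochondria, had levels of -0.16, -0.01, -0.23 and -0.03 at 4 weeks, against -0.64, -0.51, -0.55 and -1.06 at 1 week. The 4-week arrays were all higher, by 0.58 ± 0.14 on average (SE, adjusted p = 0.0455, limma). All 5 SOD2 probes differed in this direction, by 0.58 to 0.83, and 4 of them passed. These probes are the same stretch of sequence shifted by 1 base each, so they are nearly 1 measurement repeated. The gene's own call was lost in each fit without 1 of the 8 arrays (adjusted p = 0.0521 to 0.128), although every such fit left the difference between 0.46 and 0.64. The call was also lost in the 8-array fit (0.248) and with normexp correction (0.561). SOD2 averaged 0.11 ± 0.14 in untreated joints, 0.02 ± 0.16 at 2 weeks and -0.61 ± 0.22 at 8 weeks. SOD2 was the 1 called gene of 6 in the heat shock and oxidative stress list, beside 1.27% of all kept probes called. The other 5 did not pass, and SOD1 and GPX1 are named after their values were seen. Cytosolic SOD1 differed by -0.02 ± 0.11, with 4 of its 8 probes of the same sign, and GPX1, a glutathione peroxidase, by 0.01 ± 0.15. The extracellular SOD3, well above background on 3 of the 4-week arrays and 1 of the 1-week arrays, differed by 1.73 ± 0.82 (adjusted p = 0.394).

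VDAC3, a porin of the outer mitochondrial membrane, had levels of 3.68, 3.61, 3.65 and 4.08 at 4 weeks, against 2.55, 2.07, 2.93 and 2.99 at 1 week. The groups did not overlap, and the difference was 1.12 ± 0.26 (SE, adjusted p = 0.0401, limma). Fits without 1-week replicates 1 or 2 or without any of the 4-week arrays ended the call (adjusted p up to 0.147). The call was also lost in the 8-array fit (0.129), with normexp correction (0.615) and with quantile normalization. VDAC3 averaged 3.77 ± 0.41 in untreated joints, 3.89 ± 0.50 at 2 weeks and 3.25 ± 0.26 at 8 weeks. Related genes did not pass: VDAC1 differed by -0.01, and SLC25A4, the adenine nucleotide carrier of the inner membrane, by 0.03 ± 0.14 (adjusted p = 0.951). VDAC3 was therefore the 1 called gene of 4 in the mitochondrial list, beside 1.27% of all kept probes called. The median difference of that list was 0.03.

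Genes for an ectoenzyme and 2 membrane receptors were also higher. DPEP1, a dipeptidase of the cell surface that the array describes as a renal protein, had levels of -2.91, -3.16, -2.76 and -2.97 at 4 weeks, against -3.57, -4.83, -4.03 and -4.73 at 1 week. It was higher by 1.34 ± 0.26 (SE, adjusted p = 0.0122, limma) with no overlap, but 2 of the 1-week arrays were not well above background. With a floor for dim signals the difference of DPEP1 was 0.56 (adjusted p = 0.353) and with normexp correction 0.063 (0.97), and the call was also lost without 1-week replicate 2 (0.054). CHRM4, a muscarinic acetylcholine receptor, likewise had 2 such 1-week arrays. Its levels were -2.18, -1.90, -2.12 and -2.02 at 4 weeks, against -2.71, -3.66, -3.02 and -2.55 at 1 week, a difference of 0.93 ± 0.22 (adjusted p = 0.0489). The call of CHRM4 was lost in 6 of the 8 fits without 1 array, the exceptions being those without 1-week replicates 1 or 4. It was also lost with a floor for dim signals (0.93, adjusted p = 0.0565) and with normexp correction (0.22, 0.903).

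S1PR2, a receptor for the lipid sphingosine 1-phosphate, was the 1 called gene whose groups overlapped, and is named after its values were seen. Its levels were -0.98, -1.80, -1.15 and -1.63 at 4 weeks, against -2.69, -2.51, -3.42 and -1.70 at 1 week, and 1-week replicate 4 lay within the 4-week range. The difference was 1.19 ± 0.28 (SE, adjusted p = 0.042, limma), and 1.49 without that array (adjusted p = 0.00143). With normexp correction it was 0.58 (adjusted p = 0.903). Leaving out 1-week replicates 1, 2 or 3 or 4-week replicates 1, 3 or 4 ended the call (adjusted p up to 0.131).

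YBX1, a nucleic acid binding protein that regulates transcription and mRNA translation, was the 1 named gene called lower at its representative probe, the brightest one kept. It had levels of 4.43, 4.68, 4.47 and 4.64 at 4 weeks, against 5.05, 5.36, 4.99 and 5.34 at 1 week. The 4-week arrays were all lower, with a difference of -0.63 ± 0.11 (SE, adjusted p = 0.00434, limma). A second YBX1 probe gave -0.53 ± 0.10 (adjusted p = 0.00772), also with no overlap. The call held without any 1 array (adjusted p up to 0.0207) but not in the 8-array fit (0.16) or with normexp correction (0.903). In the same fits the second probe did not pass either (0.212 and 0.903). The call was also lost in the 8-array fit with array weights. YBX1 averaged 4.65 ± 0.13 in untreated joints, 4.55 ± 0.09 at 2 weeks and 4.74 ± 0.09 at 8 weeks, so that the 1-week mean was the highest of the 5.

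**Figure D2:**
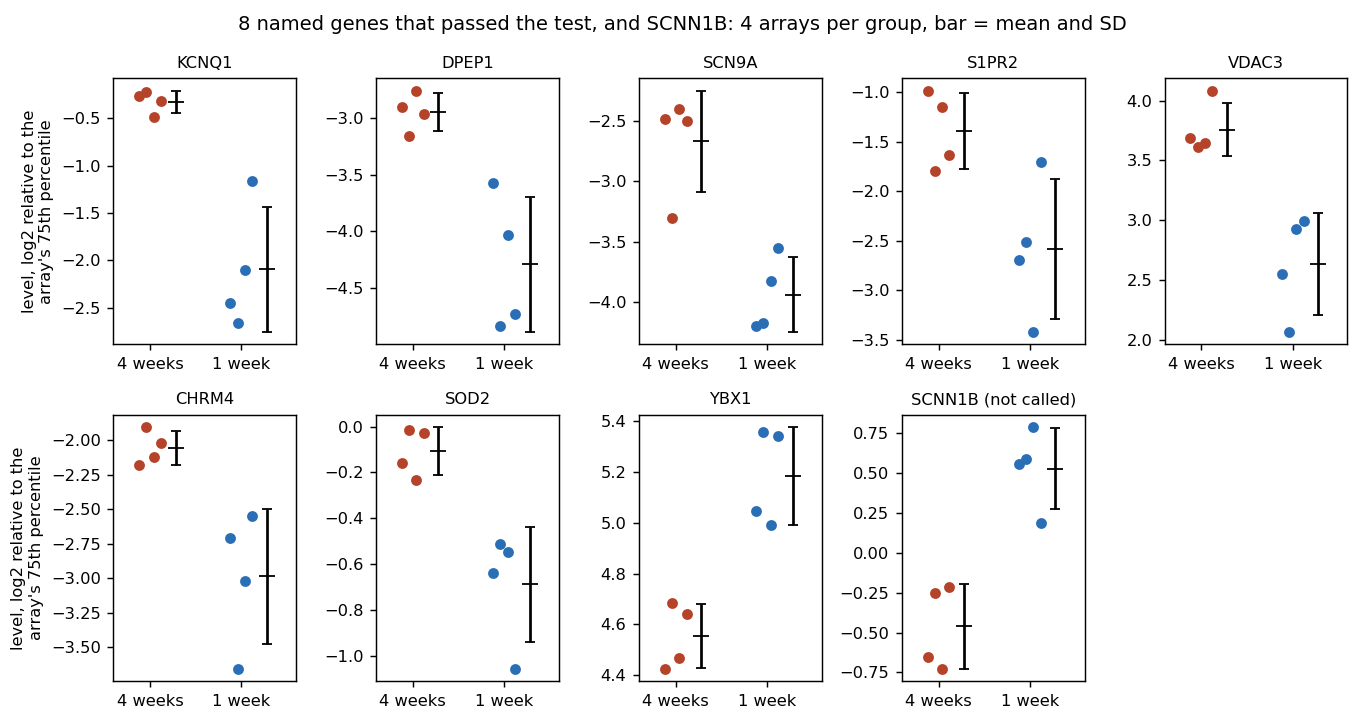
Levels of 8 of the 9 named genes that passed the test and of SCNN1B on each array (vertical axes, log2 relative to the array's 75th percentile; scales differ between panels), with 4-week arrays on the left and 1-week arrays on the right; bars are the mean and SD of 4 arrays. The groups overlap for S1PR2 and for none of the other genes shown.

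In 3 further genes a probe passed that was not the brightest of its gene, which was the one used for the gene's value; these genes were chosen after their values were seen. SCNN1B encodes the beta subunit of the epithelial sodium channel. All 5 of its probes were lower at 4 weeks with no overlap between groups, by 0.99 to 1.23 on the log2 scale, and 3 of them passed. The sequences of these probes are shifted by 1 base each, so they are nearly 1 measurement repeated. The brightest SCNN1B probe had levels of -0.65, -0.25, -0.73 and -0.21 at 4 weeks, against 0.56, 0.59, 0.79 and 0.19 at 1 week, a difference of -0.99 ± 0.26 (SE) that did not pass (adjusted p = 0.0749, limma) except without 1-week replicate 4 (0.0367). JPH1, which ties the cell membrane to the calcium store of muscle cells, gave negative differences at all 7 probes, from -0.69 to -1.78. Most of these share much of their sequence, and 1 passed (adjusted p = 0.0341). UBE2B, a ubiquitin-conjugating enzyme, gave 0.20 to 0.43 over 5 probes, and 1 passed (adjusted p = 0.0474).

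Most of the probes that passed, 309 of 327, carry no gene name here. Among unnamed probes that passed and were well above background on all 8 arrays, A_04_P025263 and A_04_P011744 had the largest rises. Both come from expressed sequence tags. A_04_P025263 had levels of 0.09, 0.01, -0.47 and -0.05 at 4 weeks, against -3.86, -1.70, -3.59 and -0.39 at 1 week (2.28 ± 0.52, SE, adjusted p = 0.0404, limma). Its 4-week arrays were tight, but 1-week replicate 4 lay within their range. The call was lost in each fit without 1 array (adjusted p up to 0.104) except that without 1-week replicate 4. The 5 kept probes of its tag ran from -0.77 to 2.28, and 1 was called. A_04_P011744 was higher by 2.09 ± 0.36 (adjusted p = 0.00546) with no overlap, and 3 of the 5 kept probes of its tag were called, within a range from -0.39 to 2.09. The falls of A_04_P093627 and A_04_P041697, whose sequences are shown above, were -1.21 ± 0.19 (adjusted p = 0.00246) and -1.21 ± 0.27 (adjusted p = 0.0345). The call of A_04_P041697 was lost without 1-week replicates 1 or 2 or 4-week replicates 1, 2 or 3 (adjusted p up to 0.129). A_04_P093627 had levels of -1.31, -2.34, -1.93 and -2.08 at 4 weeks, against -0.53, -0.72, -0.95 and -0.61 at 1 week, and lay lower on every 4-week array. None of these 4 unnamed probes passed in the 8-array fit (adjusted p = 0.11 to 0.358, limma) or with normexp correction (0.203 to 0.86).

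Probes of 1 transcript were compared within the same RNA. Of 28 transcripts with 3 or more kept probes and at least 2 that passed, 24 had every kept probe on the same side of 0, and in 9 every kept probe passed. These transcripts were selected by their called probes, so agreement in sign was favoured in advance and is a description only. All 9 were higher at 4 weeks, as were 271 of all 327 called probes. Their probes share the labelled RNA of each array and are not replicates of the condition. Probes of 1 transcript can also share most of their sequence, as those of SOD2 and SCNN1B do. Of 131 kept probes described as rearranged immunoglobulin, 2 were called higher and 5 lower (beside 1.05% and 0.217% of all kept probes), with a median difference of -0.16. Their arrays did not overlap at 4 probes that were higher and 19 that were lower (beside 3.23% and 3.3%), and 36 had an unadjusted p under 0.05 (beside 12.7%). Their median level was between -3.22 and -2.93 at 4 weeks and between -3.39 and -2.70 at 1 week.

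The largest differences among named genes did not pass the test. The 3 largest belonged to genes of neutrophils, the granulocytes that reach inflamed or bleeding tissue first and are also formed in bone marrow. S100A8, a subunit of the calcium-binding protein calprotectin, had levels of 3.24, 1.18, 5.95 and 5.73 at 4 weeks, against 0.15, -1.50, 0.56 and 0.71 at 1 week. Every 4-week array was above every 1-week array, but the 4-week arrays were spread widely. The difference was 4.05 ± 1.63 (SE, 95% confidence interval 0.62 to 7.48, adjusted p = 0.297, limma), and all 10 S100A8 probes gave 4.00 to 4.47.

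S100A12, a related calcium-binding protein of granulocytes, had levels of 2.70, 0.72, 4.80 and 4.90 at 4 weeks, against -0.79, -1.72, 0.19 and 0.60 at 1 week (3.71 ± 1.38, SE, adjusted p = 0.255). CAMP, the antimicrobial cathelicidin of neutrophil granules, had levels of 2.07, -0.28, 4.76 and 4.41 at 4 weeks, against -1.06, -3.63, -1.40 and -1.62 at 1 week (4.67 ± 1.93, adjusted p = 0.311). Again no arrays overlapped, and 4-week replicate 2 was the lowest of its group for each of these genes. BPI, a bactericidal granule protein, had levels of 2.63, -1.43, 5.30 and 4.44 at 4 weeks, against 0.68, -0.55, 0.71 and -1.63 at 1 week. BPI thus overlapped through 4-week replicate 2 (2.93 ± 1.61, adjusted p = 0.467).

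The other measured neutrophil genes had smaller differences. S100A9, the partner of S100A8, differed by 0.43 ± 0.33, the chemokine receptor gene CXCR2 by -0.21 ± 0.19, and MMP9, a gelatinase also made by osteoclasts, by -0.26 ± 0.21 (adjusted p = 0.617, 0.675 and 0.641); these 3 are named after their values were seen. Of the 7 measured genes in the neutrophil list, 5 were higher and 2 lower, none passed (3 at an unadjusted p under 0.05), and the median difference was 2.93. The median was 2.46 without 1-week replicate 4 and 2.68 with normexp correction. The summed level of the list, to which MMP9 contributes most, was between 460.3 and 649.1 at 4 weeks and between 381.9 and 900.9 at 1 week. In the other groups S100A8 averaged 2.81 ± 1.47 in untreated joints, 0.99 ± 3.18 at 2 weeks and 1.35 ± 3.49 at 8 weeks, so a wide spread between animals was not limited to 4 weeks. In whole tissue, more cells of a type and more RNA per cell cannot be told apart.

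Genes of chondrocytes varied between animals in both groups, and the time points did not separate. COL2A1, the gene of type II collagen, had levels of 9.46, 10.34, 9.33 and 9.53 at 4 weeks, against 8.98, 9.90, 9.66 and 11.23 at 1 week. COL2A1 was well above background on all 8 arrays. Its highest values were on 1-week replicate 4 and 4-week replicate 2. The difference of -0.28 ± 0.51 (SE, 95% confidence interval -1.34 to 0.79, adjusted p = 0.853, limma) was 0.15 without 1-week replicate 4. CNMD, the anti-angiogenic chondromodulin, had levels of 3.96, 6.27, 3.84 and 4.04 at 4 weeks, against 2.86, 3.59, 4.63 and 6.69 at 1 week. The same 2 arrays were again the highest. ACAN, the aggrecan core protein, differed by -0.44 ± 0.38 (0.01 without 1-week replicate 4), and SOX9, the transcription factor of chondrocyte identity, by -0.76 ± 0.44 (-0.34 without it), although SOX9 was well above background on only 2 of the 4-week arrays. None of the 4 measured members of the hyaline cartilage list passed, and 0 had an unadjusted p under 0.05.

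Of the genes of hypertrophic chondrocytes, COL10A1 and IHH were highest on the same 2 arrays. COL10A1, type X collagen, had levels of 6.90, 8.91, 7.37 and 7.20 at 4 weeks, against 6.75, 8.44, 7.23 and 9.85 at 1 week (-0.47 ± 0.87, SE, adjusted p = 0.855, limma). IHH, the hedgehog ligand of prehypertrophic chondrocytes, had levels of -1.30, 0.57, -0.87 and -0.82 at 4 weeks, against -0.97, -0.07, -0.58 and 1.89 at 1 week (-0.67 ± 0.54, adjusted p = 0.642). Without 1-week replicate 4 these differences were 0.12 and -0.07. RUNX2, the transcription factor of hypertrophy and bone formation, differed by -0.29 ± 0.18 (adjusted p = 0.519) and MMP13, the collagenase of hypertrophic cartilage, by 0.05 ± 0.26 (0.952). None of 10 measured members passed (0 at an unadjusted p under 0.05), 8 of them were lower, and the median was -0.30, or -0.09 without 1-week replicate 4.

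**Figure D3:**
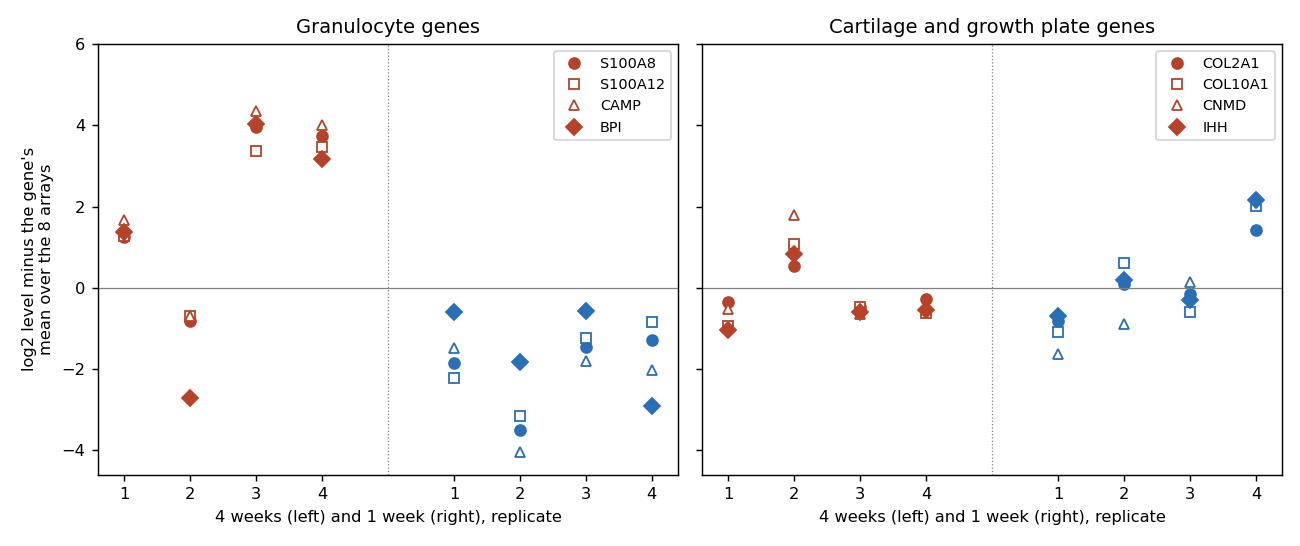
Levels of 4 granulocyte genes (left) and 4 cartilage and growth plate genes (right) on each of the 8 arrays, as log2 level minus the gene's mean over these arrays (vertical axis), with the 4-week replicates before the 1-week replicates (horizontal axis). 4-week replicates 3 and 4 carry the highest granulocyte levels, and 1-week replicate 4 and 4-week replicate 2 the highest cartilage levels.

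Among WNT and hedgehog genes, 2 of 9 had an unadjusted p under 0.05 and none passed. WNT11 differed by -1.44 ± 0.48 (SE, adjusted p = 0.195, limma) and WNT3, well above background on 2 of the 1-week arrays, by 1.32 ± 0.41 (adjusted p = 0.153). FRZB, a secreted WNT antagonist of articular cartilage, had nearly equal means of 4.95 ± 0.44 at 4 weeks and 4.93 ± 0.56 at 1 week (SD, n = 4 each), and the difference had a 95% confidence interval from -0.69 to 0.73.

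Genes that degrade matrix gave no call among 25 measured, with 4 at an unadjusted p under 0.05 and a median of 0.00. FURIN, the protease that activates many secreted precursors, had levels of -0.17, 0.06, -0.17 and -0.14 at 4 weeks, against -1.08, -1.02, -0.80 and 0.35 at 1 week. Its difference was 0.54 ± 0.23 (adjusted p = 0.323), and 0.86 without 1-week replicate 4 (0.000649), the array on which it stood apart. MMP3, stromelysin 1, differed by -0.67 ± 0.26 (adjusted p = 0.273) and the tissue plasminogen activator gene PLAT by 1.07 ± 0.42 (0.279). The urokinase gene PLAU (0.04 ± 0.23) and the metalloprotease inhibitor gene TIMP1 (-0.18 ± 0.25) had 95% confidence intervals from -0.45 to 0.54 and from -0.70 to 0.33.

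Osteoclast enzymes were bright at both times. CTSK, the collagen-degrading cathepsin K, averaged 6.82 ± 0.11 at 4 weeks and 6.27 ± 0.82 at 1 week (SD, n = 4 each), where 1-week replicate 4 was low at 5.05. ACP5, the tartrate-resistant phosphatase, averaged 7.84 ± 0.31 at 4 weeks and 8.22 ± 0.46 at 1 week. Neither passed (adjusted p = 0.488 and 0.542, limma). CALCR, the calcitonin receptor, was not well above background on any 4-week array and was on 3 of the 1-week arrays, which makes it at least 1.96-fold lower at 4 weeks (adjusted p = 0.311). For such bounds each dim array was given its lowest level well above background, or the level of the probe where that was higher. The mean of these was set against the mean of the brighter group, here the 1-week mean. A bound of this kind compares means only and carries no sampling error. Its probe was kept through the brighter group alone, so the direction was favoured in advance. Of 5 measured osteoclast genes none passed (1 at an unadjusted p under 0.05).

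The fibrous matrix list had 11 measured members, none called and none with an unadjusted p under 0.05. DCN, the small proteoglycan decorin, had levels of 6.13, 5.03, 5.84 and 5.38 at 4 weeks, against 5.64, 5.26, 5.73 and 3.39 at 1 week, where replicate 4 was low. LUM, the related lumican, averaged 5.89 ± 0.34 at 4 weeks and 5.71 ± 0.46 at 1 week (SD, n = 4 each). FN1, fibronectin, averaged 5.89 ± 0.41 at 4 weeks and 5.80 ± 0.29 at 1 week. The 95% confidence interval of the FN1 difference ran from -0.40 to 0.57. In the synovium and joint surface list the hyaluronan synthase gene HAS2 differed by -1.14 ± 0.43 (SE, adjusted p = 0.261, limma), and 0 of 4 passed (1 at an unadjusted p under 0.05). Of 12 growth factor and receptor genes none passed (1 at an unadjusted p under 0.05), with KIT, the stem cell factor receptor, at 0.69 ± 0.24 (adjusted p = 0.218).

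None of 23 measured genes of inflammatory mediators passed, beside 1.27% of all kept probes called. Of these genes 0 had an unadjusted p under 0.05, beside 12.7% of all kept probes. With so few genes at that share of calls, the lack of a call does not show equal levels at the 2 times. IL1B, the cytokine interleukin 1 beta, had levels of -2.03, -3.33, -0.81 and -0.73 at 4 weeks, against -2.73, -3.25, -3.03 and -2.09 at 1 week, so that 4-week replicates 3 and 4 were above the rest (1.05 ± 0.67, SE, adjusted p = 0.538, limma). These were also the arrays with the highest granulocyte levels. TNF differed by 0.34 ± 0.28 with 1 of 3 probes of that sign, the neutrophil chemokine CXCL8 by -0.14 ± 0.28 with 1 of 3, and PTGS2, the inducible cyclooxygenase, by 0.51 ± 0.36 with both. Macrophage and monocyte genes were lower in 6 of 9 cases with a median of -0.47, none passed, and 0 had an unadjusted p under 0.05. MMP12, the macrophage elastase, differed by -1.81 ± 0.92 (adjusted p = 0.424) but was well above background on 1 of the 4-week arrays and 3 of the 1-week arrays. Of 6 lymphocyte genes none passed (1 at an unadjusted p under 0.05), and the interleukin 2 receptor gene IL2RA was higher on every 4-week array (1.38 ± 0.51, adjusted p = 0.249).

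Markers of neighbouring tissues were examined because a sample of the condyle can include them. TNNC2, the troponin C of fast muscle fibres, had levels of -3.07, -2.64, -3.11 and -3.36 at 4 weeks, against -0.22, -1.92, -1.43 and -1.66 at 1 week. Every 4-week array was lower, yet the difference of -1.74 ± 1.05 (SE) did not pass (adjusted p = 0.515, limma). The fast myosin gene MYH2 was not well above background on any 4-week array, so it was kept through the 1-week arrays alone. Its mean was at least 2.23-fold lower, a bound without sampling error (adjusted p = 0.548). None of 18 skeletal muscle genes passed and 0 had an unadjusted p under 0.05. Of these 11 were lower, 2 with no overlap (beside 3.3% of all kept probes), and the median difference was -0.27. The median level of the list was between -2.89 and -2.504 on the 4-week arrays, all below the 1-week arrays at -2.31 to -1.63, while the summed level was between 13.4 and 19.8 at 4 weeks and between 12.9 and 15.5 at 1 week. All 5 smooth muscle and pericyte genes were lower, by a median of 0.32 on the log2 scale, with TAGLN, a cytoskeletal protein of smooth muscle, at -1.50 ± 0.45 (adjusted p = 0.143) and 0 called (1 at an unadjusted p under 0.05). The 9 endothelial genes gave no call (2 at an unadjusted p under 0.05), with the nitric oxide synthase gene NOS3 at -0.53 ± 0.21 (adjusted p = 0.3).

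Haemoglobin genes gave a measure of blood in the samples. HBB2, a beta globin, averaged 8.40 ± 0.14 at 4 weeks and 8.24 ± 0.16 at 1 week (SD, n = 4 each), and HBA, alpha globin, 6.84 ± 0.28 at 4 weeks and 6.61 ± 0.27 at 1 week (0 of 3 called, 0 at an unadjusted p under 0.05). The part of blood or marrow in the granulocyte values was not tested. In the adipose and lipid list, 0 of 18 passed (3 at an unadjusted p under 0.05). The probe named CYP7A1, the rate-limiting enzyme of bile acid synthesis in liver, averaged 7.11 ± 0.21 at 4 weeks and 6.32 ± 0.39 at 1 week (SD, n = 4 each), with no overlap (0.78 ± 0.22, SE, adjusted p = 0.102, and 0.0192 without 1-week replicate 4, limma). APOA1, the main protein of high density lipoprotein, differed by -2.23 ± 0.71 (adjusted p = 0.173), with 1 of the 4-week arrays well above background. The APOA1 difference was -1.42 without 1-week replicate 4, -1.04 with a floor for dim signals and -1.06 with normexp correction. It passed the test without 1-week replicate 1 (-3.03, adjusted p = 0.0177, limma). The APOA1 probe was kept through the 1-week arrays alone, so a lower level at 4 weeks was favoured in advance. Of 4 epithelial and 3 neural genes none passed (1 and 0 at an unadjusted p under 0.05), with medians of -0.44 and -0.20.

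Lists of metabolism and growth genes had medians near 0, with single genes further away. Of 13 hypoxia and glycolysis genes, 10 were lower, the median was -0.15 and none passed (0 at an unadjusted p under 0.05). The glucose carrier gene SLC2A3, not well above background on any 1-week array, was kept through the 4-week arrays alone. Its mean was at least 1.95-fold higher, a bound without sampling error (adjusted p = 0.419, limma). GPI, the glycolytic glucose phosphate isomerase, differed by -0.42 ± 0.22 and GAPDH by -0.31 ± 0.23 (SE). Of 4 secretory chaperone genes, CALR, the chaperone calreticulin, differed by -0.35 ± 0.12 (adjusted p = 0.199), and 0 passed (1 at an unadjusted p under 0.05). Translation genes had 9 of 12 lower with a median of -0.13, and 0 passed (3 at an unadjusted p under 0.05). The cell cycle list had a median of -0.15 over 7 genes, the apoptosis list 0.03 over 5 and the immediate early list -0.25 over 3, with 0 called and 1 at an unadjusted p under 0.05 in each. EGR1, an immediate early transcription factor, differed by -0.95 ± 0.35 (adjusted p = 0.253). Of 6 steroid hormone and nuclear receptor genes none passed (1 at an unadjusted p under 0.05).

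Transporter genes differed in both directions. Of 35 solute carrier genes 0 passed, 9 had an unadjusted p under 0.05 (beside 12.7% of all kept probes) and 6 had no overlap between groups (beside 6.53%), of which 5 were lower (beside 3.3%). SLC22A6, an organic anion transporter, had levels of -1.50, -1.64, -1.55 and -1.38 at 4 weeks, against -1.05, -1.36, -1.12 and -0.99 at 1 week. All 4 were lower than the 1-week arrays, by 0.38 on average, and the adjusted p was 0.141 (limma). SLC7A8, an amino acid transporter, differed by -0.48 ± 0.15 (SE, adjusted p = 0.169), with all 5 probes of that sign. Of 5 connexins, which form gap junctions, none passed (2 at an unadjusted p under 0.05). GJB1 had levels of 3.91, 3.92, 3.82 and 4.25 at 4 weeks, against 2.87, 2.63, 3.38 and 3.79 at 1 week (0.81 ± 0.26, adjusted p = 0.173, and 0.0365 without 1-week replicate 4). GJA10 was lower on every 4-week array (-0.49 ± 0.15, adjusted p = 0.153). Of 23 cytochrome P450 and conjugation enzyme genes none passed (2 at an unadjusted p under 0.05), and the largest difference was 2.69 ± 1.29 for CYP2A11 (adjusted p = 0.4), well above background on 3 of the 4-week arrays and 1 of the 1-week arrays.

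**Figure D4:**
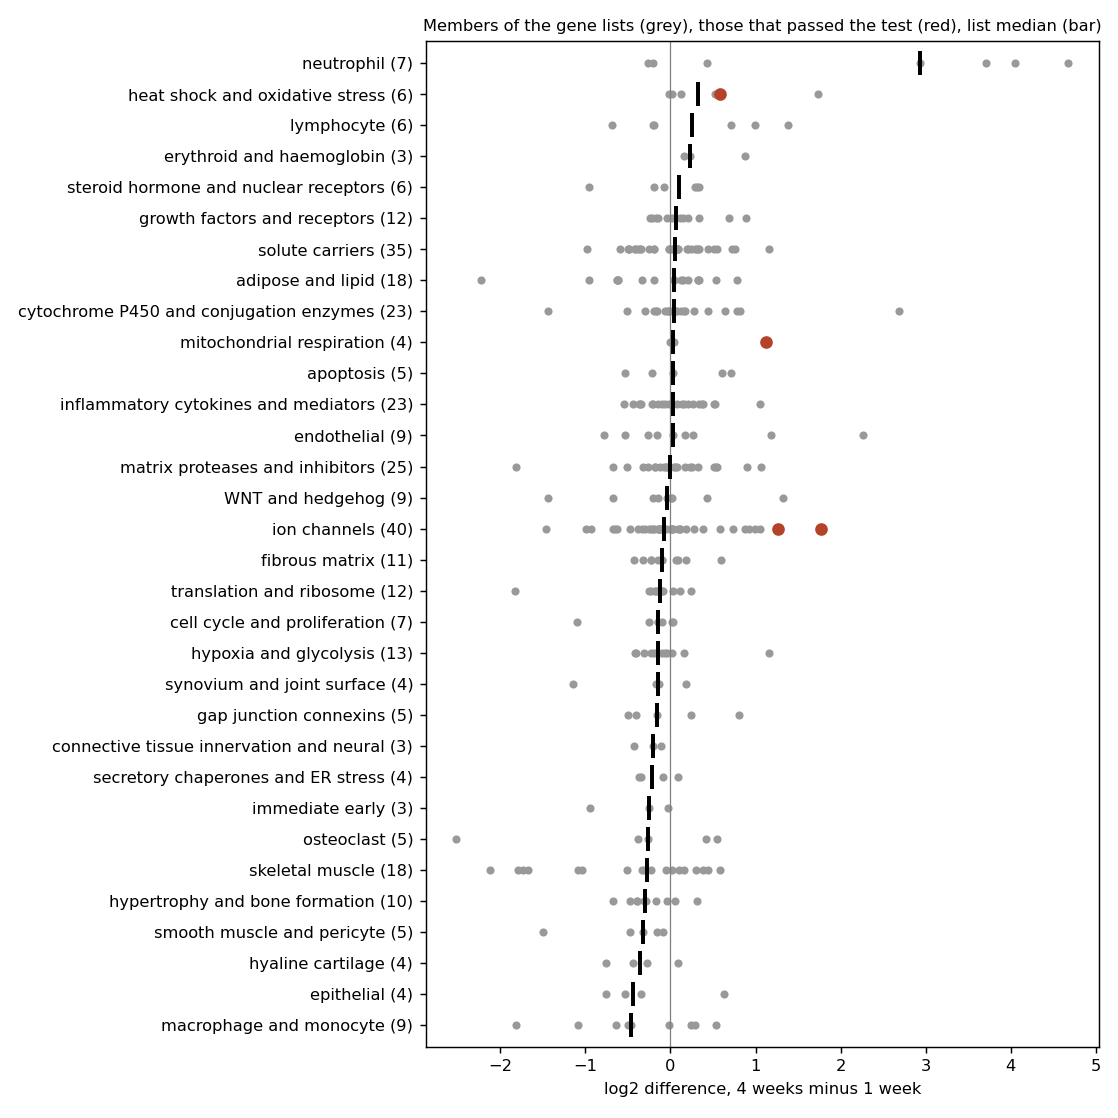
Log2 difference, 4 weeks minus 1 week, of each measured gene (grey points) in 32 gene lists (rows, number of measured genes in brackets), with called genes in red and the list median as a black bar. The neutrophil list has a median of 2.93, and the 4 called list members are SOD2, VDAC3, KCNQ1 and SCN9A.

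Over all 32 lists, 317 genes were measured and 4 were called, beside 1.27% of kept probes. Leaving out 1-week replicate 4, the array of lowest signal, raised the number of named genes called to 27, of which 25 were higher and 2 lower. YBX1 and SCNN1B were the 2 lower genes. Of the 9 genes called with all arrays, SOD2 was the 1 not among them (adjusted p = 0.0606, limma).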

How the data were processed

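RNA of 20 condylar cartilage samples was hybridised to 1-colour Agilent arrays. The deposited intensity of each spot was used; per the file headers it was made with Agilent Feature Extraction 10.7.1.1. The table of intensities that the authors deposited for the series was used in an alternative fit. Outlier spots were left out, repeated spots averaged, log2 taken and each array's 75th percentile subtracted. Probes well above background on 3 or more of 4 arrays of either group were kept (25821 of 43603). Differences were fitted with limma 3.58.1 (R 4.3.3, lmFit and eBayes) on the means of 5 groups over 20 arrays. They were adjusted by Benjamini-Hochberg over the kept probes and called at adjusted p under 0.05. The fit was also run on simulated data. These had 1 spread per probe for all 5 groups, so they cannot show the effect of the wider 1-week spread. Replicate numbers come from the labels and were not used as a block. Intervals use a confidence level of 95%.

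Gene names, from the files' own columns or matched in RefSeq (assembly mOryCun1.1), were given to 3217 probes and 1056 genes, of which 721 were measured. Each gene is represented by the kept probe with the highest 20-array mean. The members and the 32 gene lists were chosen with earlier results of these data known. Named are up to 12 called rises and 12 falls with no overlap, up to 4 genes of lowest p per list, a fixed panel of cartilage, matrix, inflammation, osteoclast and muscle genes, and at most 2 rising and 2 falling unnamed probes. The alternatives tried concern the arrays fitted, weights, block, scaling, background, filter and floor. Some genes that meet this rule, 1 called gene among them, are not reported here.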

Additional observations from a re-analysis of the deposited data

Results flagged for a closer look

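In groups of 4 arrays, a value is listed here when its gap to the nearest of the others relative to the group's range exceeds Dixon's 95% critical value. This holds by chance for about 1 in 20 groups, and 8 of 128 groups examined met it. On 1-week replicate 4, MMP13, a collagenase, was low at 5.92 (the others 7.15 to 7.34), and the median of the WNT and hedgehog list was high at 1.89 (the others -0.17 to 0.06). IHH, 1 of the 9 measured genes of that list, also had a level of 1.89 on that array. On 4-week replicate 2, SOX9 was high at -2.83 (the others -3.91 to -3.77), the hyaline cartilage median was high at 2.59 (the others 0.92 to 1.12) and SCN9A was low at -3.30 (the highest -2.40). VDAC3 was high on 4-week replicate 4 at 4.08 (the others 3.61 to 3.68). The median of the solute carrier list was low on 4-week replicate 3 at -1.20 (the others -0.99 to -0.97), and that of the skeletal muscle list was high on 1-week replicate 1 at -1.63 (the others -2.31 to -2.26).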

How the results depend on the processing

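The number of probes called was 327 as reported. It was 34 with only the 8 arrays, 549 with the 8 arrays and array weights, 982 with 20 arrays and array weights, 13 with normexp background and 143 with the strict filter, and a fit chosen after seeing the data (only the 8 arrays, without 1-week replicate 4) gave 405. Median centring (383), quantile normalization (387), the floor for dim signals (226), no filter (256) and the authors' value table (324) stayed within 1.5 times. Leaving out 1 array gave 195 to 770, the highest without 1-week replicate 4. For named genes, 9 as reported, the counts in the same order were 0, 23, 35, 0, 4 and 12, with 6 for the floor and 5 without a filter, and 4 to 27 without 1 array; at 0, limma still gave 2365 probes (8 arrays) and 1023 (normexp) at an unadjusted p under 0.05. For list members, 4 as reported, they were 0, 10, 18, 0, 2 and 6, with 2 for the floor, 2 without a filter, 3 for quantile normalization, and 2 to 12 without 1 array. No called gene changed sign in any fit: of 186 refitted values 108 kept the call and 78 lost it, and the cause was not tested. Among 125 other named genes, 31 of 2590 refitted values passed the test and 0 were called in opposite directions. The replicate block gave 283 probes, 6 genes and 3 list members with 20 arrays, and 0, 0 and 0 with 8 arrays (limma, 2250 probes at an unadjusted p under 0.05); correlations of same-numbered arrays, -0.04 to 0.18, did not pair the samples. Slide as a block could not be fitted, since each group lay on its own slide. Dim probes limit what can be seen: 20305 of the 25821 kept probes were well above background on all 8 arrays.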
